A study of Vitis vinifera with 16 samples.

Results

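Transcripts of 4 genes listed as class III peroxidases (PO) were followed in leaves of grapevine cv. Garnacha Blanca, Vitis vinifera, 24 h after spraying. The members were taken from a list of identifiers, which was made with earlier results of these data known. All 4 were found among the 30661 genes of the deposited table: VIT_12s0055g01010, VIT_08s0058g00970, VIT_08s0058g00980 and VIT_08s0058g00990. Plants were sprayed with Akivi (Aki, an extract of Dittrichia viscosa at 0.521 g/L), with lyophilized (BL) or fresh (BF) Bacillus UdG, a strain of B. velezensis, or with water as the non-treated control (NTC). The 4 groups had 4 libraries each, and a library pooled 2 leaves from each of 5 plants, which were different plants in every library. All plants were grafted on rootstock 110R and grown in a greenhouse, and per the labels each treatment formed its own block of plants, so that block and treatment cannot be told apart.

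Class III peroxidases are secreted haem enzymes of plants. They use hydrogen peroxide to oxidise phenolic compounds, which cross-links cell wall polymers and couples the units of lignin, and they can also produce reactive oxygen species. The family is large in every vascular plant, and single members are induced by wounding, pathogens and defence hormones in leaves. The supplement of the study describes VIT_12s0055g01010 as a peroxidase and VIT_08s0058g00970 as a cationic peroxidase, that is, one with a basic isoelectric point. The other members were taken as listed, and a role of their own is not given here. By identifier, VIT_08s0058g00970, VIT_08s0058g00980 and VIT_08s0058g00990 follow directly on each other, whereas VIT_12s0055g01010 belongs to another chromosome.

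The study designed RT-qPCR assays for 2 of these genes, and their primers are shown because they define which transcripts were also picked as marker candidates of the Akivi response. Capitals mark the last 5 bases at the 3′ end, where extension starts.
VIT_12s0055g01010 forward: cgcaaagtgtgctctGCAAT
VIT_12s0055g01010 reverse: agtgcatgtgagaagttACGGA
VIT_08s0058g00970 forward: ctccgcttgacaccaAAAGC
VIT_08s0058g00970 reverse: acttgagaatccgtgGAGCC
The study chose both as marker candidates on the sequencing libraries it retained, so their rise in Aki in those libraries is a description and not independent evidence. By its RT-qPCR and its fold limit the study reported both as upregulated in Garnacha Blanca alone among its cultivars, and it did not keep them as stable markers. Below that limit it also gave VIT_08s0058g00970 as significantly different from NTC in Garnacha Tinta. VIT_08s0058g00980 and VIT_08s0058g00990 were not among its marker candidates.

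Levels are given as FPKM, fragment numbers divided by gene length and by the library total, which allows levels to be compared between genes. The study left out 1 library per group as discordant (Aki_R1, BL_R1, BF_R1 and NTC_R3), so tests were run on the 12 retained libraries and again on all 16. A library held 11078475 to 16991911 fragments on genes, as rebuilt from the FPKM. On the 4 genes, 3 fragments, taken as the smallest amount told from 0, correspond to between 0.145 and 0.273 FPKM. A gene was called a differentially expressed gene (DEG) when the adjusted p of limma was 0.05 or less and the log2 fold change on log2(FPKM + 0.1) was at least 1.4 in size. Every sample is a pool of whole leaves, in which more cells of a type and more RNA per cell cannot be told apart.

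VIT_12s0055g01010 was the most abundant of the 4 genes in Aki and the one that Akivi raised most. It had 76.4, 69.9, 57.5 and 63.6 FPKM in the Aki libraries R1 to R4. The BL libraries had 4.50, 5.90, 3.35 and 7.33 FPKM, and the BF libraries 2.11, 4.52, 3.88 and 2.98 FPKM. In NTC the gene stood at 5.05, 11.01, 15.3 and 7.29 FPKM. The lowest Aki library was therefore far above the highest library of any other group, while the BL and NTC libraries overlapped and the BF libraries lay below the lowest NTC library. The order of the group means was Aki at 66.8 ± 8.12, NTC at 9.66 ± 4.49, BL at 5.27 ± 1.72 and BF at 3.37 ± 1.05 FPKM (SD, n = 4 each). Among genes above 0 in a group, 92.2% lay below it in Aki and 58.6% in NTC. The 12 libraries gave a log2 fold change of 3.08 for Aki against NTC (SE 0.30, 95% confidence interval 2.43 to 3.74, adjusted p = 0.000425, limma), and the 16 libraries gave 2.89 (SE 0.31, adjusted p = 0.000134, limma). Ranked from the largest rise, this was place 15 of 20078 genes tested with 12 libraries and place 8 of 20246 with 16.

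VIT_08s0058g00970, the cationic peroxidase, followed the same order of groups at a level several times lower. The Aki libraries had 12.1, 9.05, 7.46 and 7.38 FPKM. The BL libraries had 0.560, 1.196, 0.621 and 1.04 FPKM, the BF libraries 0.506, 0.820, 0.538 and 0.562 FPKM, and the NTC libraries 1.501, 1.85, 2.63 and 1.23 FPKM. No Aki library overlapped with any other group, and every BL and BF library lay below every NTC library. The group means were 8.998 ± 2.20 FPKM in Aki, 1.80 ± 0.608 in NTC, 0.854 ± 0.312 in BL and 0.607 ± 0.144 in BF (SD, n = 4 each). The levels of the Bacillus groups rested on few fragments, between 9 and 17 per library in BL and between 7 and 14 in BF, against 116 to 195 in Aki and 20 to 42 in NTC. For Aki against NTC the log2 fold change was 2.32 with 12 libraries (SE 0.28, 95% confidence interval 1.72 to 2.92, adjusted p = 0.00110, limma) and 2.28 with 16 (SE 0.28, adjusted p = 0.000527, limma). It took place 70 with 12 libraries and place 34 with 16.

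VIT_08s0058g00980, the next gene by identifier, had a higher basal level than VIT_08s0058g00970 and rose less in Aki. It had 31.2, 30.9, 25.8 and 24.2 FPKM in Aki. The values were 9.46, 13.6, 7.03 and 11.4 FPKM in BL, 9.45, 8.11, 10.97 and 9.20 FPKM in BF, and 8.19, 9.51, 10.2 and 8.06 FPKM in NTC. The Aki libraries again stood clear of all others, and the other groups overlapped with each other. Group means were 28.0 ± 3.59 FPKM in Aki, 10.4 ± 2.81 in BL, 9.43 ± 1.18 in BF and 8.99 ± 1.04 in NTC (SD, n = 4 each), and the order of the last 3 was within their spread. The log2 fold change of Aki against NTC was 1.63 with 12 libraries (SE 0.21, 95% confidence interval 1.18 to 2.08, adjusted p = 0.00140, limma) and 1.63 with 16 (SE 0.17, adjusted p = 0.000106, limma), in places 213 and 124.

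VIT_08s0058g00990 was close to the limit of detection. It had 0.0723, 0.0909, 0.0617 and 0.127 FPKM in Aki, 0.0593, 0, 0.0804 and 0.565 FPKM in BL, 0, 0.341, 0.179 and 0.728 FPKM in BF, and 0.187, 0, 0.0731 and 0.144 FPKM in NTC. More than 3 fragments were found only in BL_R4, BF_R2 and BF_R4, with 7, 5 and 10 fragments. Over the 4 libraries of a group the gene summed to 5 fragments in Aki, 9 in BL, 17 in BF and 6 in NTC. It did not reach 0.5 FPKM in 3 libraries and so was left out by the filter on low values. Without that filter it passed in none of the 6 comparisons, with adjusted p between 0.258 and 1.0 (limma, 12 libraries), and a difference between Aki and NTC was not detectable at this depth.

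**Figure D1:**
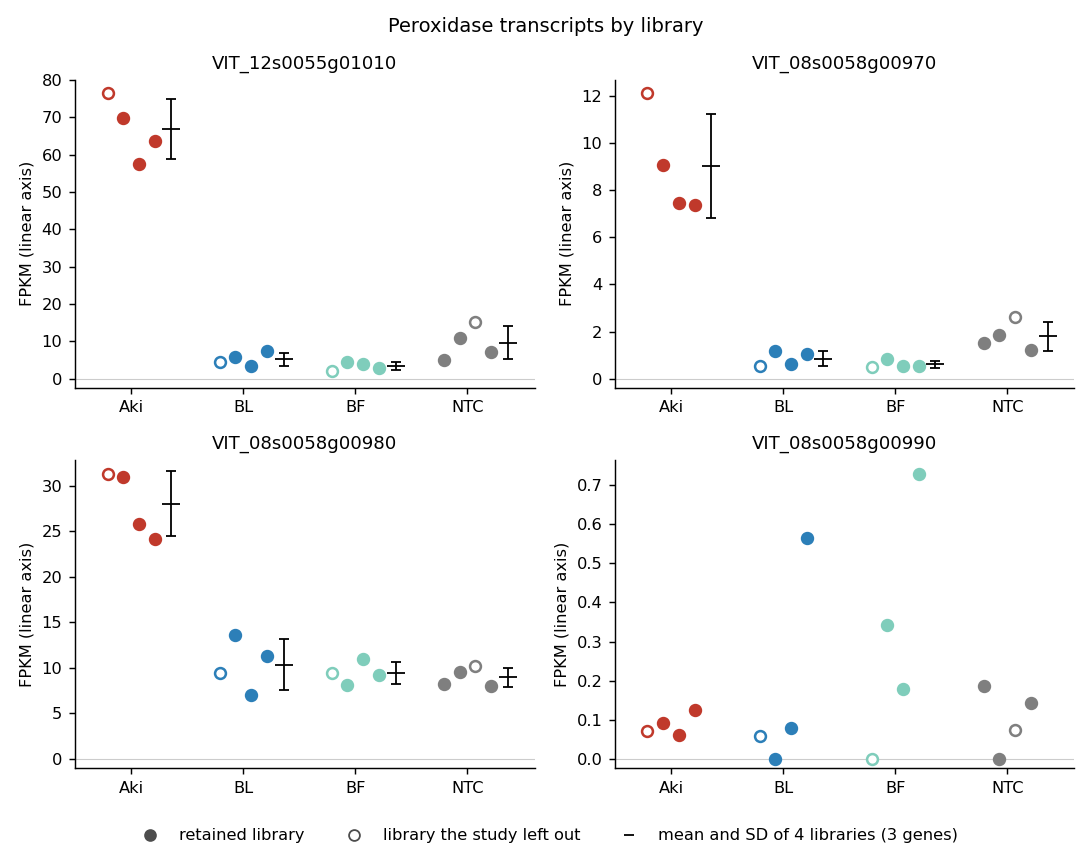
FPKM of the 4 peroxidase genes in each library, on linear axes that differ between panels, with Aki, BL, BF and NTC from left to right. Filled points are the 12 retained libraries, open points the 4 libraries that the study left out, and bars the mean and SD of 4 libraries, drawn for the 3 genes that passed the filter on low values. The Aki libraries lie above all others for these 3 genes, at 57.5 to 76.4, 7.38 to 12.1 and 24.2 to 31.2 FPKM, and VIT_08s0058g00990 exceeds 0.5 FPKM in BL_R4 and BF_R4 only.

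Thus 3 of the 3 genes tested were called higher in Aki than in NTC, with 12 and with 16 libraries. Over all genes tested, 0.956% were called higher with 12 libraries and 0.375% with 16. VIT_12s0055g01010 and VIT_08s0058g00970 had been chosen by the study for this rise in the retained libraries, which both fits include. Their calls are therefore no independent evidence, and only VIT_08s0058g00980 lay outside that choice. The list of members, however, was made with earlier results of these data known, so the call of VIT_08s0058g00980 is not independent evidence either. All 3 genes were at 0.5 FPKM or more in each of the 16 libraries, so none passed the filter on low values through its Aki libraries alone. No call was lost by the removal of any single library, with log2 fold changes between 2.62 and 3.37 for VIT_12s0055g01010, between 2.12 and 2.47 for VIT_08s0058g00970 and between 1.53 and 1.71 for VIT_08s0058g00980. The 4 libraries that the study left out had no part in its choice of marker candidates. Of these, Aki_R1 had 76.4, 12.1 and 31.2 FPKM of the 3 genes, and NTC_R3 had 15.3, 2.63 and 10.2 FPKM, each the highest value of its group.

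After the Bacillus treatments none of the 3 genes was called higher. In BL against NTC, 0 of the 3 genes were called in either direction, where 3.83% of all genes were called with 12 libraries and 2.59% with 16. VIT_12s0055g01010 had a log2 fold change of -0.49 with 12 libraries (95% confidence interval -1.14 to 0.17, adjusted p = 0.291, limma) and -0.80 with 16 (-1.45 to -0.15, adjusted p = 0.0919, limma). Without NTC_R1 the 16-library value was -1.07 and passed the adjusted p alone (0.0219, limma). VIT_08s0058g00970 had -0.66 with 12 libraries (-1.26 to -0.05, adjusted p = 0.121, limma). With 16 libraries it was lower in BL by the adjusted p alone, at -1.005 (-1.60 to -0.41, adjusted p = 0.0225, limma), short of the limit of 1.4, and this rested on BL_R1, BL_R3, NTC_R2 and NTC_R3, since without any one of them the adjusted p lay between 0.0582 and 0.0746. By the adjusted p alone 0 of 3 genes were thus lower in BL with 12 libraries and 1 of 3 with 16, where 8.16% and 6.65% of all genes were. VIT_08s0058g00980 had 0.26 with 12 libraries (-0.19 to 0.71, adjusted p = 0.416, limma) and 0.17 with 16 (-0.19 to 0.53, adjusted p = 0.575, limma). Without BL_R3 the 12-library value was 0.53 and passed the adjusted p alone (0.0479, limma), short of the limit of 1.4. With all libraries of either set 0 of 3 genes were higher in BL by the adjusted p alone, where 11.5% of all genes were with 12 and 9.33% with 16.

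In BF the 2 marker candidates were lower than in NTC, and whether they counted as DEGs depended on the libraries. VIT_12s0055g01010 had a log2 fold change of -0.97 with 12 libraries (95% confidence interval -1.62 to -0.31, adjusted p = 0.0481, limma), short of the limit of 1.4, and the adjusted p lay between 0.0582 and 0.158 in 9 of the 12 fits without 1 library. It was called lower with 16 (-1.43, -2.08 to -0.78, adjusted p = 0.00431, limma). The call with 16 libraries was lost without BF_R1, BF_R4, NTC_R2 or NTC_R3, with values of -1.23, -1.39, -1.32 and -1.17. VIT_08s0058g00970 had -1.14 with 12 libraries (-1.74 to -0.54, adjusted p = 0.0149, limma) and -1.399 with 16 (-1.998 to -0.80, adjusted p = 0.00262, limma), where the value stayed just under the limit and passed it without BF_R2, NTC_R1 or NTC_R4. With 12 libraries 0 of 3 genes were called lower in BF and with 16 libraries 1 of 3, where 1.14% and 1.01% of all genes were called lower. By the adjusted p alone 2 of 3 genes were lower with either set of libraries, where 5.62% of all genes were with 12 libraries and 6.56% with 16. With 12 libraries this also ended for VIT_08s0058g00970 without BF_R3 or NTC_R2 (adjusted p = 0.0506 and 0.0556, limma). VIT_08s0058g00980 had 0.13 with 12 libraries (-0.32 to 0.58, adjusted p = 0.761, limma) and 0.07 with 16 (-0.29 to 0.43, adjusted p = 0.834, limma).

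The treatments were also compared with each other. VIT_12s0055g01010 was higher in Aki than in BL by 3.57 on the log2 scale with 12 libraries (adjusted p = 2.52e-05, limma) and by 3.69 with 16 (adjusted p = 1.05e-06, limma). Against BF it was higher in Aki by 4.05 (adjusted p = 8.88e-06, limma) and by 4.32 (adjusted p = 3.46e-07, limma). VIT_08s0058g00970 was higher in Aki by 2.98 and 3.28 against BL and by 3.46 and 3.68 against BF, with 12 and 16 libraries, and adjusted p between 4.56e-07 and 3.69e-05 (limma). These sizes depend on the pseudocount, since the Bacillus groups stood near or under 1 FPKM, and with a pseudocount of 1 in place of 0.1 FPKM the 12-library values were 2.21 against BL and 2.45 against BF, both still called. For VIT_08s0058g00980 the difference between Aki and BF was 1.51 with 12 libraries and 1.56 with 16, and it was called in both. Its difference between Aki and BL was 1.37 with 12 libraries (adjusted p = 0.000988, limma), just short of the limit, and 1.46 with 16 libraries (adjusted p = 2.33e-05, limma), where it was called. With 12 libraries the difference passed the limit without Aki_R3, Aki_R4, BL_R2 or BL_R4 (1.401, 1.45, 1.57 and 1.44), and with 16 it fell under it without BL_R3 (1.29). Thus 2 of 3 genes were called higher in Aki than in BL with 12 libraries and 3 of 3 with 16, where 1.36% and 1.45% of all genes were. Against BF 3 of 3 genes were called higher in Aki with either set, where 1.28% and 1.42% of all genes were.

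Between lyophilized and fresh Bacillus UdG none of the 3 genes passed the test, and the intervals give the differences that remain possible. The log2 differences of BL against BF with 12 libraries were 0.48 for VIT_12s0055g01010 (95% confidence interval -0.17 to 1.14, adjusted p = 0.667, limma), 0.48 for VIT_08s0058g00970 (-0.12 to 1.09, adjusted p = 0.655, limma) and 0.14 for VIT_08s0058g00980 (-0.31 to 0.59, adjusted p = 0.863, limma). With 16 libraries they were 0.63 (-0.02 to 1.28), 0.39 (-0.21 to 0.99) and 0.10 (-0.26 to 0.46). Of all genes tested, 0 were called by limma with 12 libraries, although 1625 had an unadjusted p under 0.05, and 0.0395% were called with 16.

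**Figure D2:**
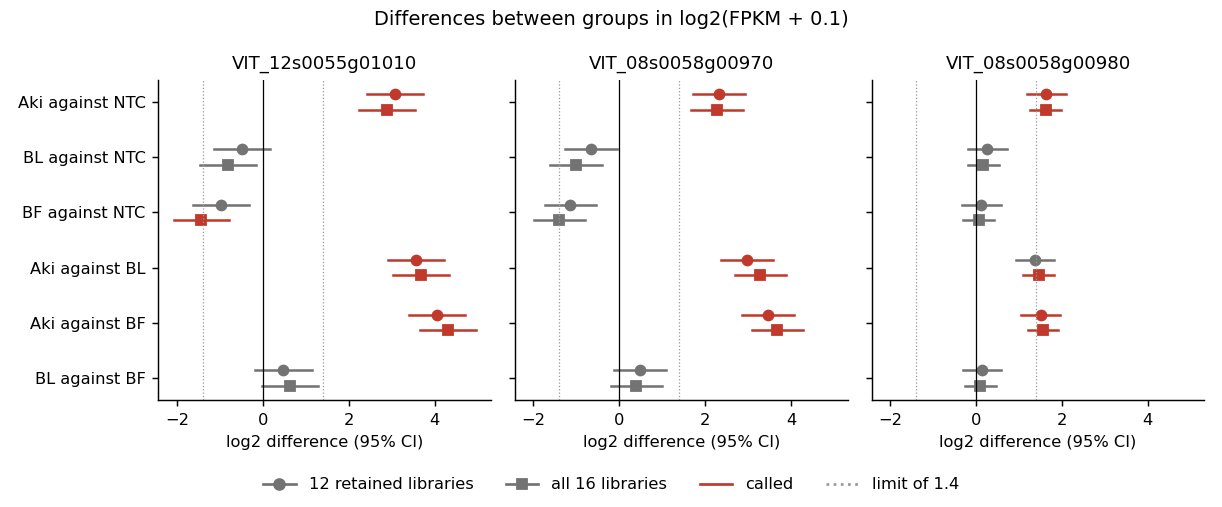
Log2 differences of the 3 tested peroxidase genes in 6 comparisons, each as the first group named minus the second, with 95% confidence intervals from limma. Circles are fits of 12 libraries, squares fits of 16, red marks a call and the dotted lines the limit of 1.4. Aki against NTC is called for all 3 genes, at 3.08, 2.32 and 1.63 with 12 libraries, and the intervals of BL against BF include 0.

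The composition of the peroxidase transcripts differed between groups as well as their amount. Within a library these ratios are free of the scaling between libraries. The FPKM of the 4 genes summed to 104 ± 13.4 in Aki, 16.7 ± 4.66 in BL, 13.7 ± 1.43 in BF and 20.6 ± 6.00 in NTC (SD, n = 4 each). VIT_12s0055g01010 made up 63.3% to 66.8% of the sum in Aki, 28.4% to 36.1% in BL, 17.5% to 32.8% in BF and 33.8% to 54.2% in NTC. In Aki it therefore led in every library, at 2.23 to 2.63 times the level of VIT_08s0058g00980. In BL and BF VIT_08s0058g00980 was the most abundant in every library, with VIT_12s0055g01010 at 0.432 to 0.645 and at 0.223 to 0.557 of its level, and in NTC the ratio was between 0.617 and 1.498.

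The 2 neighbouring genes VIT_08s0058g00970 and VIT_08s0058g00980 did not move in proportion. The level of VIT_08s0058g00980 was 2.58 to 3.46 times that of VIT_08s0058g00970 in Aki, 10.9 to 16.9 times in BL, 9.89 to 20.4 times in BF and 3.88 to 6.53 times in NTC. The ratio was lower in every Aki library, and higher in every BL and BF library, than in any NTC library. In contrast, VIT_12s0055g01010 to VIT_08s0058g00970 overlapped among the groups, at 6.31 to 8.61 in Aki, 4.93 to 8.05 in BL, 4.17 to 7.21 in BF and 3.37 to 5.95 in NTC, apart from Aki and NTC, which did not overlap.

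VIT_12s0055g01010 and VIT_08s0058g00970, on different chromosomes, had the closest patterns. Over the 16 libraries the Pearson correlation of log2(FPKM + 0.1) was 0.984 (Spearman 0.947, and Pearson 0.974 over the 14 libraries without Aki_R1 and Aki_R2), and of the 20245 other genes past the filter each was the one most like the other. The Aki libraries stand apart from the others in both genes, so the correlation was also taken without them. Over the 12 libraries without Aki the correlation was 0.908 (Spearman 0.881), and 0.784 over the 10 libraries left without NTC_R2 and NTC_R3. There VIT_08s0058g00970 took place 7 among the genes most like VIT_12s0055g01010, and VIT_12s0055g01010 took place 21 in turn. VIT_08s0058g00980 followed them over 16 libraries, at 0.906 and 0.888, but over the 12 libraries without Aki the values were 0.245 and 0.143. These correlations describe libraries of 4 groups, which share treatments and are not independent points, and they carry no test.

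**Figure D3:**
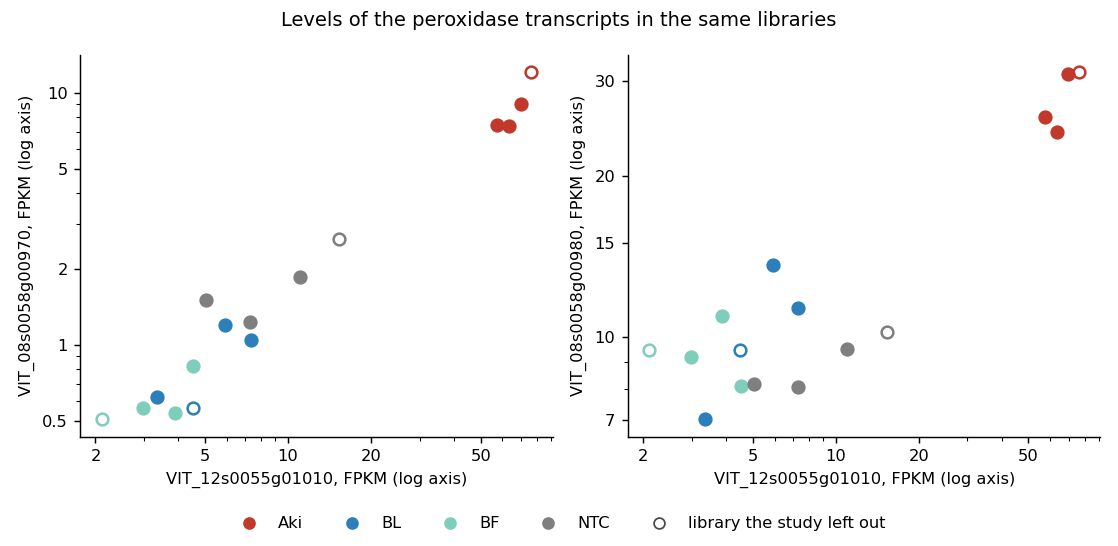
FPKM of VIT_08s0058g00970 (left) and VIT_08s0058g00980 (right) against VIT_12s0055g01010 in the 16 libraries, on log axes, coloured by group, with open points for the 4 libraries that the study left out. On the left the BL, BF and NTC libraries also line up (Pearson 0.908 on log2(FPKM + 0.1), n = 12), whereas on the right they do not (0.245), and the 4 Aki libraries stand apart in both.

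Among other genes, the one most like VIT_08s0058g00970 after VIT_12s0055g01010 was VIT_01s0026g02520, at 0.983 over 16 libraries and 0.969 over the 12 without Aki. For VIT_08s0058g00980 the gene in place 2 was VIT_12s0059g02600, described in the study as receptor protein kinase RK20-1 and also one of its Akivi markers, at 0.930 over 16 libraries. The study chose that gene for its rise in Aki, and over the 12 libraries without Aki it was not in the first 3 places. The remaining genes in the first 3 places over 16 libraries were between 0.928 and 0.976 and carry no description here.

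Other genes near the peroxidases by identifier were also examined, with the members themselves left out. Of 37 other identifiers within 10 steps of a member on the same scaffold, 29 were above 0 in at least 1 library and 25 were tested. In Aki against NTC 0 of the 25 were called with either set of libraries, where 1.68% of all genes were called with 12 and 0.38% with 16. With shares this small, a count of 0 does not set the neighbours apart from other genes. Their log2 fold changes with 12 libraries ranged from -0.99 to 0.96, with a median of 0.05, beside a median of -0.01 over all genes tested. By the adjusted p alone 1 neighbour was lower in Aki with 12 libraries, VIT_08s0058g00960, which precedes VIT_08s0058g00970 and is named after its values were seen, where 3.63% of all genes were with 12 libraries and 0.109% with 16. It averaged 8.41 ± 1.67 FPKM in Aki and 15.6 ± 3.28 FPKM in NTC (SD, n = 3 each; log2 fold change -0.88, adjusted p = 0.0279, limma), and with 16 libraries its adjusted p was 0.423.

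In BL 1 of the 25 neighbours was called higher with 12 libraries and 0 with 16, where 1.98% and 1.5% of all genes were. It was VIT_12s0055g01020, the identifier after VIT_12s0055g01010, at 0.665 ± 0.304 FPKM in BL and 0.171 ± 0.0579 FPKM in NTC (SD, n = 3 each; log2 fold change 1.43, adjusted p = 0.0443, limma). In the retained NTC libraries this level rests on 2, 3 and 2 fragments, and NTC_R3 had 9. With 16 libraries the log2 fold change was 1.12 (adjusted p = 0.163, limma). In BF 0 of the 25 were called with either set, where 2.73% and 2.27% of all genes were.

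**Figure D4:**
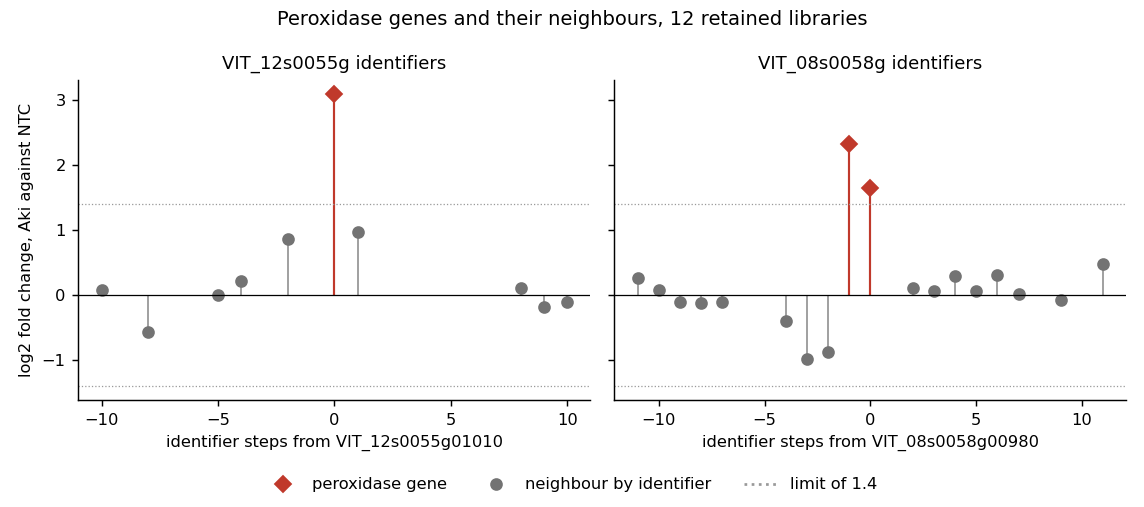
Log2 fold change of Aki against NTC (12 libraries, limma) for the tested peroxidase genes (diamonds) and their tested neighbours (circles), by steps of the identifier from VIT_12s0055g01010 (left) and VIT_08s0058g00980 (right). Steps follow the order of identifiers and not distances. The peroxidases stand at 3.08, 2.32 and 1.63, above the dotted limit of 1.4, and the 25 neighbours lie between -0.99 and 0.96.

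Hydrogen peroxide is the substrate of these enzymes, so 7 genes that the study lists under response to hydrogen peroxide were set beside them. They comprise 3 small heat shock proteins, which are chaperones, 3 ferritins, which store iron, and 1 catalase, which breaks hydrogen peroxide down. The study chose them on these samples for their rise after Bacillus UdG, so their direction is not independent evidence. Its supplement lists none of them as raised by Akivi at its log2 limit of 1.4. Few or no calls in Aki at that limit were therefore set in advance by the choice of the list. In Aki against NTC 0 of 7 were called higher with either set of libraries, where 0.956% of all genes were with 12 and 0.375% with 16, and their median log2 fold change was 0.68 and 0.88. At shares this small, a count of 0 does not set the 7 genes apart from other genes. By the adjusted p alone 2 of 7 were higher in Aki with 12 libraries and 1 of 7 with 16, where 4.29% and 0.82% of all genes were. In BL 5 of 7 were called higher with either set (median 1.61 and 1.48), where 1.98% and 1.5% of all genes were, and 4 genes were called with both. VIT_00s0992g00020 was called in BL with 12 libraries alone (1.49, and 1.34 with 16) and VIT_13s0019g03160 with 16 alone (1.41, and 1.28 with 12), both named after their values were seen. In BF 2 of 7 were called higher with 12 libraries and 4 of 7 with 16 (median 1.47 and 1.55), where 1.59% and 1.26% of all genes were called higher.

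The ferritin VIT_08s0058g00440 averaged 58.1 ± 5.59 FPKM in BL and 14.4 ± 10.1 FPKM in NTC (SD, n = 3 each; log2 fold change 2.21, adjusted p = 0.0120, limma). The ferritins VIT_08s0058g00430 and VIT_08s0058g00410 rose in BL by 2.14 and 1.82 (adjusted p = 0.0169 and 0.0184, limma). The heat shock protein VIT_00s0992g00020 averaged 52.0 ± 4.02 FPKM in BF and 16.3 ± 2.07 FPKM in NTC (SD, n = 3 each; log2 fold change 1.67, adjusted p = 3.36e-06, limma). The catalase VIT_00s0698g00010, named for its function beyond the rule, rose in BL by 1.61 (adjusted p = 0.00341, limma), and had -0.13 in Aki (adjusted p = 0.86, limma). The other 6 listed genes had between 0.48 and 1.22 in Aki with 12 libraries. In Aki the 3 peroxidases were called higher and 0 of the 7 listed genes were. Both counts follow on a choice of genes made with these data known, so they are no evidence of a contrast. Whether the responses of the 2 sets differ was not tested.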

How the data were processed

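RNA sequencing of 16 leaf libraries was analysed, in groups taken from the sample labels. Per the labels and the study's methods, the authors prepared stranded mRNA libraries and demultiplexed the reads with CASAVA 1.8.2. They checked them with FastQC 0.10.1, trimmed them with BBDuk, mapped them to the PN40024 genome (12X, Ensembl) with STAR 2.6 and counted uniquely mapping fragments per gene with featureCounts 1.6.1. The authors deposited FPKM, calculated with edgeR. The strand setting of the counting and any TMM factor in the FPKM are not given in the sources used here. Fragments and library totals rebuilt from the FPKM reproduce them without such a factor. For VIT_08s0058g00990 in NTC_R1, 3 fragments give 0.187 FPKM, the value in the deposited table, with a gene length that was itself rebuilt from the FPKM. Unique mapping leaves genes with near-identical copies uncertain. The table left 0 columns without a sample.

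Of 30661 genes, 5351 were at 0 in every library. Whole fragments were rebuilt from the steps of the FPKM for 25310 of 25310 other genes (tolerance 0.0001), and served for the floor of 3 fragments, which covers counting error only, and for 1 alternative. Linear models of log2(FPKM + 0.1) were fitted in R 4.3.3 with limma 3.58.1 (trend, robust), in 1 model of 4 groups, to genes that reached 0.5 FPKM in 3 or more fitted libraries (20078 genes with 12 libraries, 20246 with 16), with Benjamini-Hochberg adjustment over all genes of a comparison. The pseudocount understates changes of low genes. Tables and figures were made with Python 3.11.15, pandas 2.3.3, NumPy 2.4.6, SciPy 1.17.1 and matplotlib 3.10.9. On simulated data for Aki against NTC with 12 libraries and 19886 genes, 37 of 50 changes of 1.6 and 50 of 50 changes of 3 on the log2 scale were recovered, and 9 unchanged genes were called over all sizes together. The simulation gave every gene the same dispersion and changed only genes at 1 FPKM or more. Its rates therefore need not hold for the real libraries.

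The members, lists and tests were chosen with earlier results of these data known. Named were the members, the 3 genes most like each, and called genes of the lists, up to 4 per list by the largest fold. Of identifiers with no description, at most 2 that rose and 2 that fell were named. The reference table of genes held 0 of the identifiers, so peroxidases beyond the members, leaf markers, lignin genes, promoters and proteins were not analysed here. Replicates are separate sets of plants. Alternatives were other libraries, pseudocounts, filters, scalings, moderation, thresholds and models, a replicate block and each library left out. The RT-qPCR was not analysed here.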

Additional observations from a re-analysis of the deposited data

Results flagged for a closer look

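In BL_R4, VIT_08s0058g00990 had 0.565 FPKM (7 fragments), far from the other BL libraries at 0 to 0.0804 FPKM. The gap was 0.858 of the whole range of the group, above Dixon's 95% critical value for 4 samples. Of the 16 sets of 4 libraries examined (4 genes in 4 groups), this was the only 1, and chance gives about 1 in 20. In BF the same gene had 0.728 FPKM in BF_R4, which was not marked in this way.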

How the results depend on the processing

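Each of the 18 log2 differences (3 genes, 6 comparisons) was computed under 45 alternatives, and 757 of the 810 values kept their direction and their side of the rule for a DEG. The other 53 belonged to 5 differences. VIT_08s0058g00980 changed sign, without a call, in BF against NTC (0.13; -0.0075 without BF_R3, 16 libraries) and in BL against BF (0.14; -0.065 and -0.042 without BL_R2, 12 and 16 libraries). Over left-out libraries the values ran from -0.0075 to 0.23 and from -0.065 to 0.41. VIT_12s0055g01010 in BF against NTC (-0.97) was called with all 16 libraries (-1.43), with median-of-ratios rescaling of them (-1.42) and by the adjusted p alone (-0.97). Leaving out each library gave -1.24 to -0.69 with 12 libraries and -1.69 to -1.17 with 16. With 12 libraries its adjusted p rose above 0.05 in a separate fit of both groups (0.0702), without the filter (0.0583), with quantile normalization (0.0522), without trend and robust moderation (0.0747) and with voom (0.0589), and that of VIT_08s0058g00970 in the separate fit (0.0566). VIT_08s0058g00970 in BF against NTC (-1.14) was called with voom on rebuilt fragments of 16 libraries (-1.46), by the adjusted p alone and with a limit of 1 (-1.14 each), and ranged over left-out libraries from -1.31 to -1.002 with 12 and from -1.55 to -1.21 with 16. Among the alternatives other than left-out libraries, the smallest fall of this gene was -0.62 in BF against NTC. In BL against NTC it was -0.38, beside -0.66 in the main fit. VIT_08s0058g00980 in Aki against BL (1.37) was called with 16 libraries (1.46), with median-of-ratios (1.44; 16 libraries 1.49), quantile normalization (1.44), voom (1.44; 16 libraries 1.49), the adjusted p alone and a limit of 1 (1.37 each), and ranged from 1.10 to 1.57 with 12 and from 1.29 to 1.602 with 16. The 16-library voom and median-of-ratios fits and the likeness without Aki were chosen after seeing the data.

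The number of all genes called changed more. For Aki against NTC it was 337, against 77 with 16 libraries, 154 with a pseudocount of 1, 91 and 74 with voom and median-of-ratios of 16 libraries, 1589 by the adjusted p alone and 638 with a limit of 1. For BL against NTC it was 769, against 483 and 344 with pseudocounts of 0.5 and 1, 3946 and 1454 with the 2 thresholds in the same order. For BF against NTC it was 548, against 315, 214, 3114 and 1094. For Aki against BL it was 466, against 244 with a pseudocount of 1, 3102 and 981. For Aki against BF it was 485, against 321, 239, 3168 and 983. For BL against BF it was 0, against 8, 6 and 8 with 16 libraries, voom and median-of-ratios. Over left-out libraries, with 12 and then 16, the counts ran from 172 to 422 and 45 to 167 (Aki against NTC), 589 to 800 and 421 to 718 (BL against NTC), 430 to 613 and 403 to 595 (BF against NTC), 349 to 489 and 376 to 539 (Aki against BL), 369 to 542 and 363 to 546 (Aki against BF), and 0 to 3 and 0 to 26 (BL against BF). The cause was not tested. VIT_08s0058g00970 was in place 1 among the genes most like VIT_12s0055g01010, and in places 2 with 12 libraries and 7 without Aki. In turn it was 1, and 2 by Spearman, 5 with 12 libraries and 21 without Aki.

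The replicate numbers of the labels name separate plants. Of 24 same-numbered pairs of libraries, 10 had a correlation of deviations over 0.1 (range -0.35 to 0.37). All pairs of replicate 3 were positive, from 0.096 (BL and BF) to 0.37 (Aki and NTC), and those of each other number had both signs. Differently numbered pairs ranged from -0.42 to 0.45. Whether libraries of the same number share more than the number was not tested. With the replicate number as a block, Aki against NTC gave 2.93, 2.45 and 1.67 for the 3 genes with 12 libraries. The block with 16 libraries gave -1.43 for VIT_12s0055g01010 in BF against NTC and 1.46 for VIT_08s0058g00980 in Aki against BL, as without it, and the block changed no other call of these genes. The number of all genes called in Aki against NTC was 142 and 77 with the block, and in BL against BF 2 and 8, with 12 and 16 libraries.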
